A study of Bos taurus with 2 samples.

Results

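The genes described here are 5 genes that hold or move zinc in the cell or control its handling, namely MT2A, MT1E, MTF1, SLC30A1 and SLC39A14, of 21867 genes in the feature list. They were chosen by their levels over the clusters of cells, known beforehand from these same files, so the levels are given as a description with no test. Metallothioneins are small, cysteine-rich proteins that bind zinc and copper and release them again. MTF1 is the zinc-sensing transcription factor that switches on metallothionein genes and SLC30A1 when free zinc rises. SLC30A1 (ZnT1) exports zinc across the plasma membrane, and SLC39A14 (ZIP14) imports zinc, iron and manganese. In muscle, metallothioneins are known as genes that respond to metals, glucocorticoids and oxidative stress, and SLC39A14 as an importer induced in muscle wasting.

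The data are single-cell RNA-seq of bovine satellite cells, the progenitors of postnatal skeletal muscle, in which each mRNA molecule is tagged near its 3′ end with a unique molecular identifier (UMI). The cells came from the longissimus muscle of 1 Holstein bull calf aged 2 weeks and were grown for 1 week in Dulbecco's modified Eagle medium with fetal bovine serum, L-glutamine and antibiotics-antimycotics. There was 1 group, with no treated or untreated arm, and 2 libraries, replicates 1 and 2, were made from the same cells, so the spread between them is technical and says nothing of other calves. The cells were sorted by gene expression into 15 clusters by the authors, numbered from the largest, and a cluster is compared with other cells only as a description, because the same genes made the clusters.

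Replicate 1 held 9939 cells and 145631299 UMIs, and replicate 2 held 9157 cells and 137818568 UMIs. Only 27 barcodes occurred in both libraries. The median depth was between 12929 and 23011 UMIs per cell in 10 clusters and lower in clusters 10 (5398.5), 14 (2513.5), 13 (1631), 7 (1389) and 15 (647). The summed level of 6 myogenic genes (PAX7, PAX3, MYF5, MYOD1, MYOG and DES) ran from 1.86 UMIs per 10000 in cluster 9 to 45.4 in cluster 12, and that of 3 endothelial genes did not exceed a mean of 0.0189 in any cluster.

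MT2A was the most abundant of the 5 genes, with 74805 UMIs in all, and ranked 566 of 16816 genes with a UMI. Its level, the UMIs of the gene per 10000 UMIs of the cells, was 2.54 in replicate 1 and 2.74 in replicate 2 over all cells. At full depth, 64.7% of the cells held at least 1 MT2A UMI, and 1 cell held 136. The other genes were sparser. SLC39A14 had 5399 UMIs, found in 22.9% of the cells. MTF1 had 2631 UMIs, found in 12.5% of the cells. SLC30A1 had 2065 UMIs, found in 9.92% of the cells. MT1E had 786 UMIs, found in 3.96% of the cells, and no cell held more than 3.

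Over the clusters, MT2A spanned 27.1-fold. It was highest in cluster 11, at 6.75 and 7.38 UMIs per 10000 in replicates 1 and 2 (7.07 ± 0.444, SD, n = 2 libraries), and lowest in cluster 12, at 0.262 and 0.259 (0.26 ± 0.00209, SD, n = 2). The libraries of these clusters were far apart, and no other cluster overlapped either of them. Clusters 14, 5, 15, 6 and 9 followed cluster 11. Cluster 14 held 4.8 and 4.96 UMIs per 10000, cluster 5 held 4.05 and 4.43, cluster 6 held 3.35 and 3.75, and cluster 9 held 3.33 and 3.51. Of these, cluster 14 stood apart from cluster 5, while clusters 6 and 9 overlapped each other. Cluster 15 could not be placed, since it held 5.56 in replicate 1 and 2.18 in replicate 2, from 53 and 27 UMIs. Clusters 4, 10, 8 and 2 lay close together, between 2.21 and 2.57 in single libraries, and each overlapped its neighbour in the order. Cluster 13 held 1.17 and 2.06, cluster 1 held 1.42 and 1.44, and cluster 7 held 1.45 and 1.35, and these 3 also overlapped. Cluster 3, at 0.885 and 1.04, lay below all of them and above cluster 12.

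**Figure D1:**
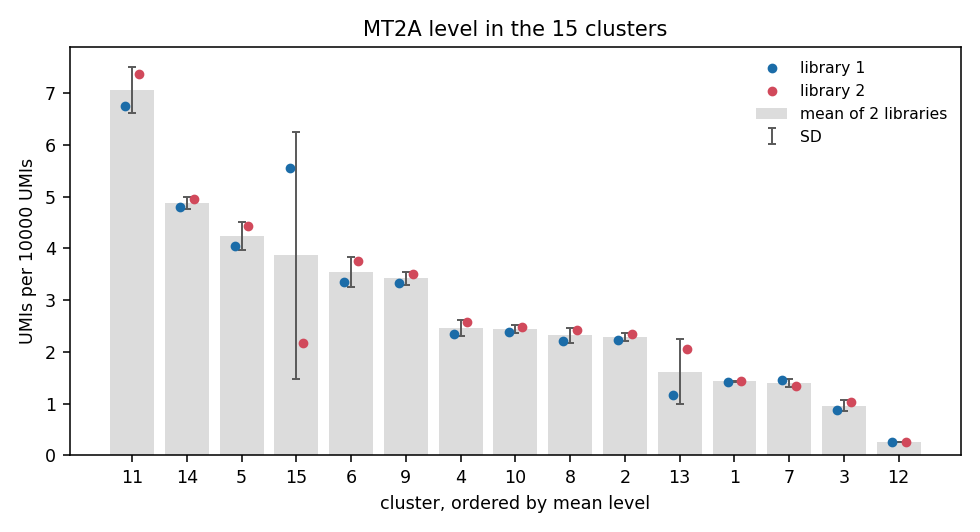
MT2A level in UMIs per 10000 UMIs (y axis) in the 15 clusters, ordered by mean level (x axis); bars are means of 2 libraries, error bars the SD and points the libraries. Cluster 11 stood at 7.07 and cluster 12 at 0.26, and the points of cluster 15 lay far apart, at 5.56 and 2.18.

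A cluster was counted as past the fold for a gene where the level was at least 1.5 times higher, or lower, than in all other cells in both libraries, among pairs of gene and cluster with an expected count of at least 10 in each library. Of 75 pairs of the 5 genes and 15 clusters, 60 could be compared, and 6 were higher and 9 lower. These calls rest on the values that chose the genes, so nothing is read from their number.

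MT2A could be compared in all 15 clusters. It was past the fold upward in cluster 11 (2.96-fold), cluster 14 (1.86-fold) and cluster 5 (1.71-fold). Over all genes, the shares called higher by the same rule were 4.03% (cluster 11), 0.649% (cluster 14) and 1.73% (cluster 5). It was past the fold downward in cluster 12 (10.6-fold), cluster 3 (2.99-fold), cluster 1 (1.97-fold) and cluster 7 (1.9-fold). Over all genes, the shares called lower were 28.2% (cluster 12), 18.7% (cluster 3), 9.57% (cluster 1) and 16.1% (cluster 7). Cluster 12 was thus also the cluster in which many other genes were low. In cluster 5, the call was lost when the other 14 clusters were given equal weight in place of being pooled by UMI.

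The MT2A levels can be set beside the myogenic genes in clusters with a like level of genes of 1 phase of the cell cycle. Clusters 11 and 6 had the highest summed levels of S phase genes, 31.6 and 31 UMIs per 10000, and MT2A was 1.99-fold higher in cluster 11 than in cluster 6. Myogenic genes summed to 3.39 in cluster 11 and 11.3 in cluster 6, and MYOD1, the transcription factor that commits cells to the muscle lineage, was at 1.3 and 1.41 in the libraries of cluster 11 and at 6.07 and 5.44 in those of cluster 6. Clusters 4 and 2 had the highest summed levels of G2/M genes, 81.8 and 83.7, and their MT2A levels differed by 1.07-fold, although myogenic genes summed to 5.22 in cluster 4 and 12.5 in cluster 2. Among the clusters low in both sets of cycle genes, MT2A was at 2.32 (cluster 8), 1.43 (cluster 1), 0.963 (cluster 3) and 0.26 (cluster 12), while myogenic genes summed to 3.58, 12.6, 24.4 and 45.4. MYOG, the transcription factor of differentiating myocytes and a part of that sum, was at 0.116 and 0.0994 in cluster 8 and at 18.1 and 19.2 in cluster 12. DES, also in the sum, was at 0.878 and 1.07 in cluster 8 and at 22.5 and 22 in cluster 12. In cluster 12 the sum was thus mostly DES and MYOG. PAX3, another part of it, was reported by the authors as enriched in cluster 8, which they called satellite cells. A low sum is therefore not a low level of each of its genes. The order of MT2A against the sum did not hold over all clusters. Cluster 9 had the lowest myogenic sum, 1.86, with MT2A at 3.42, and cluster 14 had MT2A at 4.88 with a myogenic sum of 9.58. PDGFRA, a marker of fibro-adipogenic cells, was at 1.63 and 1.53 UMIs per 10000 in cluster 9 and at 1.23 and 1.74 in cluster 7. A set of 6 fibro-adipogenic genes (PDGFRA, PPARG, ZNF423, DCN, LUM and COL1A1) did not go with PDGFRA alone. It summed to 38.8 in cluster 9, 162 in cluster 7 and 104 in cluster 8. COL1A1, a part of that sum, was at 24 and 25.3 in cluster 9 and at 148 and 145 in cluster 7. MT2A was 2.45-fold higher in cluster 9 than in cluster 7. These clusters were unlike in other markers. Myogenic genes summed to 10.5 in cluster 7. A set of 5 genes of differentiated muscle (MYH3, MYL1, MYMK, TNNT2 and ACTN2) summed to 5.79 in cluster 7 and 0.171 in cluster 9. The part of the cell cycle, of the myogenic stage and of the lower depth of clusters 7 and 14 in these levels was not tested.

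**Figure D2:**
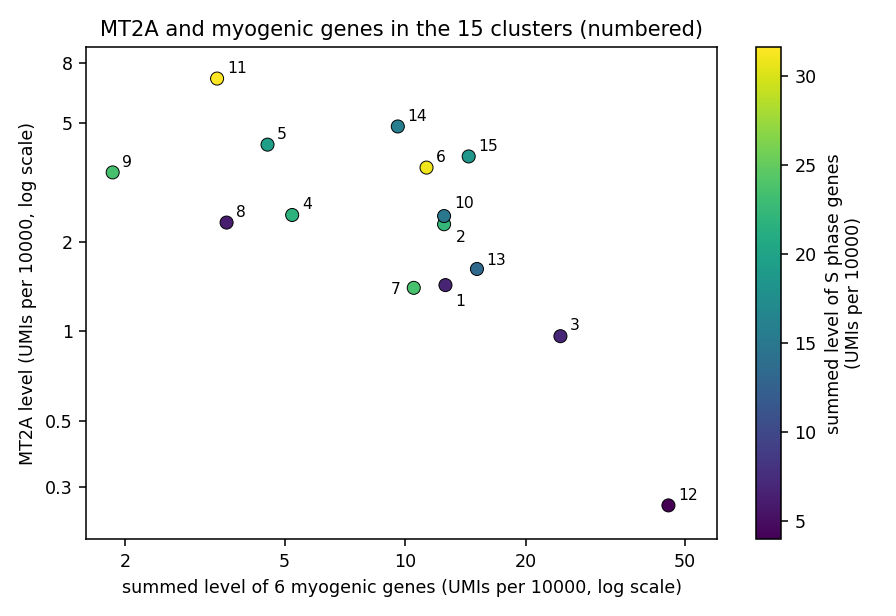
MT2A level (y axis, UMIs per 10000, log scale) against the summed level of 6 myogenic genes (x axis, UMIs per 10000, log scale) in the 15 numbered clusters, each point a mean of 2 libraries coloured by the summed level of S phase genes. Cluster 12 lies at the lower right, at 0.26 and 45.4, and cluster 11 at the upper left, at 7.07 and 3.39. The other clusters do not all follow 1 line with them. Cluster 8, for example, has a myogenic sum near that of cluster 11, 3.58, with MT2A at 2.32.

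MT2A varied widely between cells of the same cluster. With each cell thinned to 5000 UMIs, in the 11 clusters with at least 500 such cells, the median cell held 3 MT2A UMIs in cluster 11, and 16.5% of its cells held none. In cluster 5, 33.1% of the cells held none, and in cluster 12, 89.2%. The variance over cells was between 1.83 and 3.85 times the mean in each library of 10 of these clusters, where counting alone gives about 1. In cluster 12 it was 1.01 and 1.1 times the mean, but the mean there was only 0.116 UMI. A ratio at so low a mean cannot be set against those of the other clusters. Averaged over the clusters and libraries the ratio was 2.85. It ranked 24 among the 6984 genes that averaged 0.05 UMI or more in a thinned cell, and the median gene had 1.02. The ratio can rise with the mean, and these genes differ in mean. The rank may thus in part follow the abundance of MT2A. The 5% of cells with the most MT2A held 20.5% of its UMIs in cluster 11 and 35.3% in cluster 1. From cell to cell, the largest correlation of MT2A with another gene, averaged within clusters, was 0.172. It was for PTMA, which encodes the nuclear protein prothymosin alpha. The median cell held only 0 or 1 MT2A UMI in all these clusters but cluster 11. Counting error at such counts keeps correlations small, so whether another gene follows MT2A closely cannot be told from this value.

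**Figure D3:**
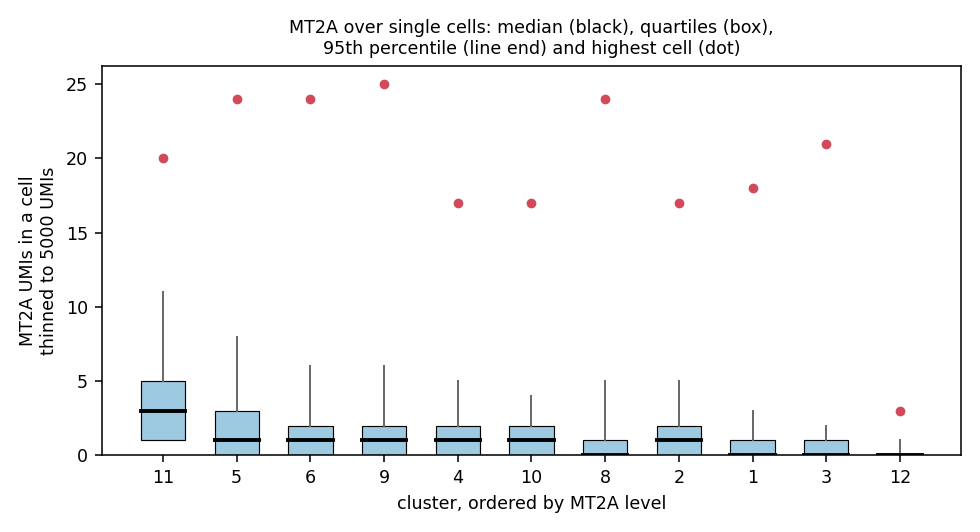
MT2A UMIs per cell after thinning to 5000 UMIs (y axis) in the 11 clusters with at least 500 such cells (x axis, ordered by MT2A level), with the median, the quartiles, the 95th percentile and the highest cell. The 95th percentile is 11 UMIs in cluster 11 and 1 UMI in cluster 12, and single cells with 17 or more UMIs occur in every cluster shown but cluster 12, where the highest is 3.

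Clusters 11 and 12 were also described by the share of cells with an MT2A UMI at equal depth. Their median depths were already alike, at 17669 and 19113 UMIs per cell. The shares come from the same UMIs as the levels, so they restate that difference and add no support to it. With each cell thinned to 500 UMIs, 26.5% of the cells of cluster 11 held an MT2A UMI (exact binomial 95% interval 23.6 to 29.6%), against 1.12% in cluster 12 (0.45 to 2.29%), or 7 of 627 cells. Another random draw of the 500 UMIs gave 23.4% and 0.797%. Free RNA in the droplets also gives UMIs to cells that do not express a gene. In the same cells of cluster 12, which were rich in MYOG, PDGFRA had a UMI in 0.319% (0.0387 to 1.15%), or 0.638% in the other draw. At 500 UMIs the intervals of MT2A and PDGFRA in cluster 12 overlap. At 5000 UMIs they did not, with MT2A in 10.8% (8.43 to 13.5%) of its cells and PDGFRA in 5.71% (4.01 to 7.85%). Free RNA of a gene depends on the abundance of that gene, so PDGFRA gives no background level for MT2A. The part of free RNA in the MT2A share of cluster 12 was not tested. All these intervals cover counting error only.

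On the RefSeq annotation of a later assembly (ARS-UCD2.0), the genes MT1A, LOC768319 and LOC613358, which lie in a row with MT2A, all carry MT1E as a synonym, so the gene counted here as MT1E (ENSBTAG00000038706) cannot be tied to 1 of them by name. These genes are close copies of each other and of MT2A, and only uniquely mapped reads were counted, so that reads could be lost or split among them. The levels of MT1E and MT2A are uncertain to that extent.

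MT1E was low in all clusters and could be compared in 10. It was at 0.0346 and 0.0521 UMIs per 10000 in cluster 11 (0.0434 ± 0.0124, SD, n = 2), the highest of the 10. Clusters 13 (0.0705), 14 (0.0744) and 15 (0.0928) were not compared but had higher means, from 7, 10 and 2 UMIs. MT1E was lowest in cluster 12. There, replicate 1 held 0 UMIs and replicate 2 held 5, against 15.4 and 19.2 expected from its level in all cells. Past the fold were cluster 12, cluster 3 (1.78-fold lower, 0.0148 and 0.0183) and cluster 9 (1.94-fold lower, 0.012 and 0.0181), where 15.1% of all genes were called lower. In clusters 12 and 3 MT2A was low as well. In cluster 9 MT2A was not past the fold, at 1.34-fold higher than in other cells. From cluster 5 (0.0345 in both libraries) to cluster 2 (0.0285 and 0.0256), 6 clusters followed each other with overlapping neighbours.

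Over the 10 clusters, the log2 levels of MT1E and MT2A had a Pearson correlation of 0.842 and a Spearman correlation of 0.685, given as a description with cells and libraries shared by both genes. The Pearson value was 0.489 without cluster 12, where MT1E had 5 UMIs, and could not be taken in replicate 1, where it had none. From cell to cell, no relation could be seen. With each cell thinned to 5000 UMIs, the correlation within a cluster was between -0.055 in cluster 8 and 0.054 in cluster 9, and only 1 to 50 cells of a cluster held an MT1E UMI. In cluster 11, the 20 cells with MT1E held 4.85 MT2A UMIs on average and the others 3.47, while in cluster 8 the 24 cells with MT1E held 0.5 and the others 1.17. MT3, another metallothionein, had 178 UMIs in all the cells. MT4 had 0.

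MTF1 could be compared in 11 clusters, none of which was past the fold. Among these it was highest in cluster 10, at 0.173 and 0.135 UMIs per 10000, and lowest in cluster 5, at 0.0699 and 0.0747, a span of 2.13-fold. In cluster 10 it was 1.69-fold higher than in other cells, and the smaller of the library folds was 1.46. Cluster 10 was past the fold with equal weight of the other clusters, without doublets, or with the mean over cells of UMI shares. Cluster 7 was not compared, with an expected count of 8.29 in replicate 1. It held 0.234 and 0.164, from 41 UMIs, a higher mean than cluster 10, and their libraries overlapped. Cluster 9 held 0.113 and 0.119. From cluster 2 (0.0934 and 0.102) down to cluster 8 (0.0748 and 0.0883), each compared cluster overlapped the next. The mRNA levels of MTF1 and its known target MT2A did not share a pattern over the clusters. The activity of MTF1 was not measured, and whether it acted on MT2A was not tested. In cluster 11, where MT2A was highest, MTF1 was at 0.103 and 0.0882. In cluster 12, where MT2A was lowest, MTF1 was at 0.0732 and 0.105, so that the libraries of these 2 clusters overlapped. The correlation of the log2 levels of MTF1 and MT2A over the 11 clusters was 0.0935, with 0.262 in replicate 1 and -0.125 in replicate 2.

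SLC30A1, the exporter, spanned 2-fold over 11 clusters, with none past the fold. It was at 0.106 and 0.0969 UMIs per 10000 in cluster 8 and at 0.0923 and 0.103 in cluster 9, which overlapped each other and lay above cluster 3, at 0.0814 and 0.0871. Cluster 10 could not be placed, with 0.0486 and 0.108, and cluster 7 was not compared, at 0.0892 and 0.189 from 31 UMIs. At the other end lay cluster 6 (0.0592 and 0.057), cluster 4 (0.0632 and 0.0508) and cluster 2 (0.0544 and 0.0471), which overlapped in that order. Clusters 2 and 4 were the clusters highest in G2/M genes, and cluster 6 was next to the highest in S phase genes, but cluster 11, the highest in S phase genes, held 0.0655 and 0.0695. The correlation of SLC30A1 with MT2A over the clusters was 0.0355, and -0.221 without cluster 12.

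SLC39A14, the importer, varied most after MT2A among the genes whose span could be taken, by 7.06-fold over 13 clusters. No span was taken for MT1E, whose means in clusters 11 and 12 differed by 10.9-fold, from few UMIs in cluster 12. The spans cover unlike sets of clusters, since cluster 7 was not compared for MTF1 and SLC30A1. SLC39A14 was highest in cluster 7, at 0.402 and 0.771 UMIs per 10000 (0.586 ± 0.261, SD, n = 2). The libraries differed widely there and held 130 UMIs in all. Cluster 10, at 0.332 and 0.323, and cluster 9, at 0.285 and 0.286, followed and did not overlap. Cluster 11 stood next, at 0.241 and 0.281. Cluster 12 was lowest, at 0.0927 and 0.0735, and cluster 14 was at 0.0951 and 0.121, from 6 and 9 UMIs. The libraries of these clusters did not overlap, but their Poisson intervals did, at 0.0678 to 0.101 and 0.061 to 0.18. Which of them was lower is thus not settled beyond counting error. The libraries of the clusters between, from cluster 3 to cluster 1, overlapped from neighbour to neighbour, between 0.143 and 0.186.

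SLC39A14 was past the fold upward in clusters 7 (3.13-fold), 10 (1.75-fold) and 9 (1.58-fold). Of all genes, the rule called 30.9% (cluster 7), 8.65% (cluster 10) and 9.93% (cluster 9) higher. It was past the fold downward in cluster 12 (2.35-fold) and cluster 14 (1.77-fold), where 9.58% of all genes were called lower. With TMM normalization, which scales to the bulk of genes, it was no longer past the fold in clusters 7 and 9, with log2 ratios to all other cells of 1.12 and 0.61 in place of 1.65 and 0.66. With equal weight of the other 14 clusters, it was no longer past the fold in clusters 9 and 10. In cluster 14, where it had 15 UMIs, the call was lost when cells with fewer than 2000 UMIs were left out or cells were assigned to clusters by likelihood. SLC39A14 and MT2A thus had like directions in cluster 12 and opposite ones in clusters 7 and 14, where the SLC39A14 calls were lost under some alternatives. The correlation of their log2 levels over the 13 clusters was 0.299, and -0.166 without cluster 12.

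**Figure D4:**
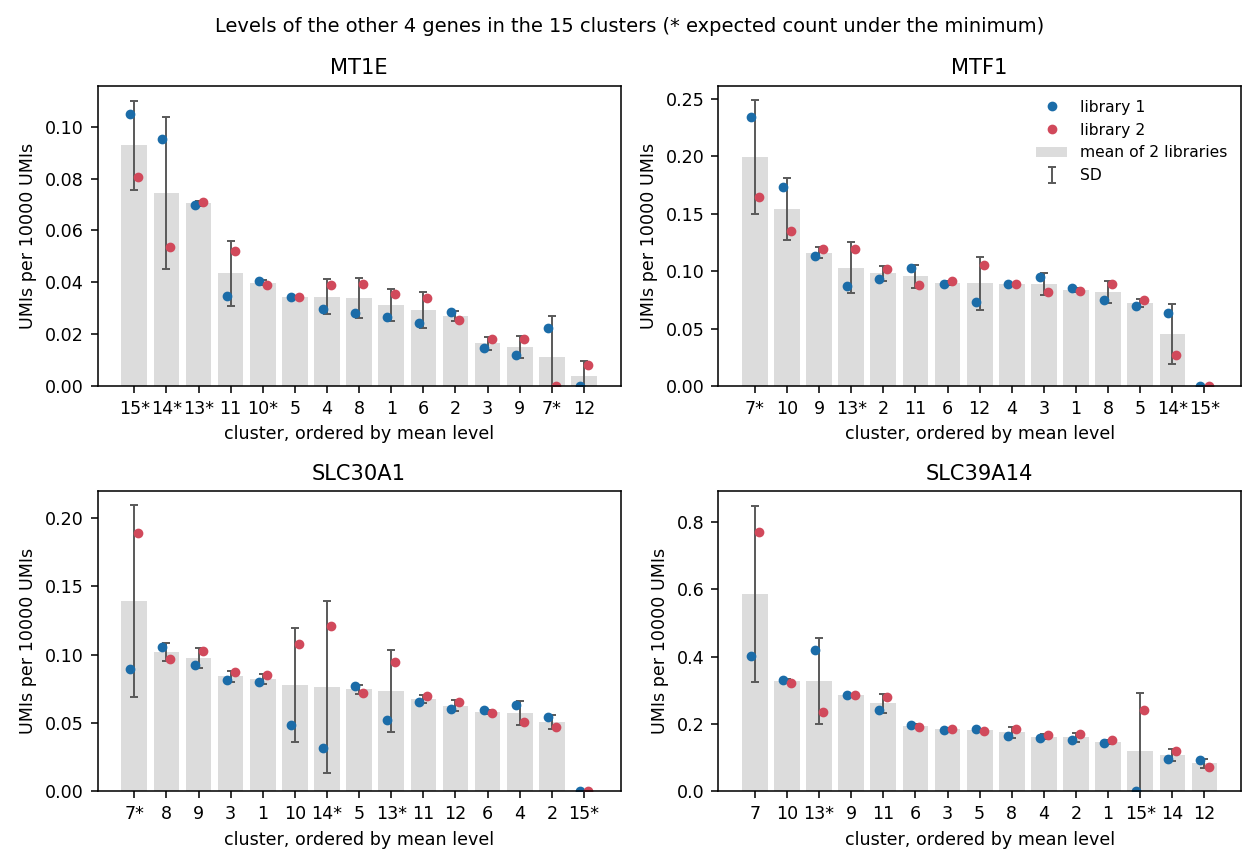
Levels of MT1E, MTF1, SLC30A1 and SLC39A14 in UMIs per 10000 UMIs (y axes) in the 15 clusters, ordered by mean level (x axes); bars are means of 2 libraries, error bars the SD and points the libraries, and an asterisk marks clusters with an expected count under 10 in a library. The libraries of cluster 7 lie far apart for SLC39A14, at 0.402 and 0.771. Over the clusters without an asterisk, MTF1 and SLC30A1 are flatter than SLC39A14.

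**Figure D5:**
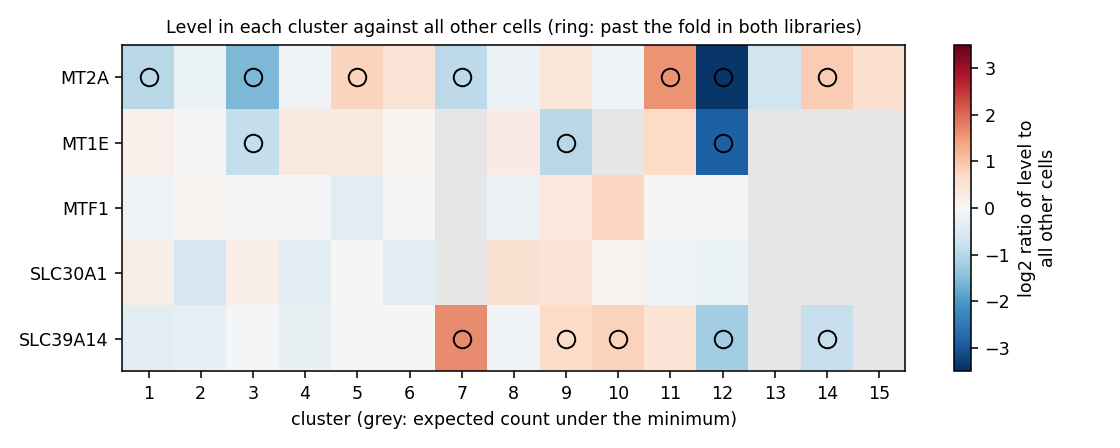
Log2 ratio of the level in a cluster to that in all other cells (colour) for the 5 genes (rows) in the 15 clusters (columns); rings mark the 15 pairs past the fold in both libraries and grey the pairs not compared. MT2A carries 7 rings, SLC39A14 5, MT1E 3 and MTF1 and SLC30A1 none.

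In single cells thinned to 500 UMIs, the 4 sparser genes were found in few cells of any cluster. The highest share of cells with a UMI in any cluster was 0.237% for MT1E, 1.28% for MTF1 and 0.77% for SLC30A1 in 1 random draw, and 0.687%, 0.99% and 0.847% in another. MYH3, a myosin of differentiating muscle, had a UMI in 0.71% of the cells of cluster 11 in the first draw and 0.237% in the other, and PDGFRA in 0.319% and 0.638% of those of cluster 12. At such low levels few cells can hold a UMI after thinning, and MYH3 and PDGFRA give no background level for other genes. Shares of this size are therefore not read as expression in single cells or as its absence. The 4 sparser genes are described by their summed levels. The share of SLC39A14 was 2% (1.31 to 2.92%) in cluster 7 and 0.159% (0.00404 to 0.885%) in cluster 12, from 1 cell. In the other draw it was 3.08% (2.21 to 4.17%) and 0.638% (0.174 to 1.63%), from 4 cells.

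Among the fold values nearest to the limit of 1.5, SLC39A14 in cluster 9 lay just inside, at 1.54 in its smaller library fold, and MTF1 in cluster 10 (1.46) and MT1E in cluster 11 (1.42) just outside. Without the minimum on the expected count, 10 pairs of the 5 genes were past the fold upward in place of 6.

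The other genes of zinc transport were described by the same rule. Of the exporters of the SLC30 family, 6 others had a UMI, and of their 52 pairs with clusters compared, 2 (3.85%) were past the fold upward and 2 (3.85%) downward. Over all genes in the same clusters, the shares were 6.66% and 11.6%. With TMM normalization, 0 of these pairs were past the fold upward and 3 downward, against 5.52% and 12.3% of all genes. SLC30A5, which loads zinc into the secretory pathway, was higher in cluster 7 (0.357 and 0.509 UMIs per 10000) and lower in cluster 12 (0.0829 and 0.0879). SLC30A9 was higher in cluster 13 (0.401 and 0.498), and SLC30A4 lower in cluster 2, from 11 UMIs.

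Of the importers of the SLC39 family, 13 others had a UMI, and of their 117 pairs compared, 10 (8.55%) were past the fold upward and 9 (7.69%) downward, against 6.75% and 11.9% of all genes in the same clusters. With TMM normalization, 5 were upward and 5 downward, against 5.5% and 12.8% of all genes. With SLC39A14, 7 of 8 importers compared were higher in cluster 7, where the rule called 30.9% of all genes higher. SLC39A7, which releases zinc from the endoplasmic reticulum, was at 2.62 and 3.31 UMIs per 10000 there. SLC39A13, of the Golgi, was at 1.29 and 1.13, and SLC39A1, a plasma membrane importer, at 1.19 and 1.79. With TMM normalization, 2 of the 8 were higher in cluster 7 and 14.4% of all genes. The median log2 ratio of the 8 importers was 1.15. The median log2 ratio of all genes in that cluster was 0.29 without and -0.24 with TMM normalization, a larger shift than in any other cluster, and the cells had the second lowest depth. Directions in cluster 7 therefore hold only relative to that scaling.

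In cluster 9, SLC39A8, a close relative of SLC39A14 that carries the same metals, was at 0.116 and 0.117 UMIs per 10000, past the fold upward. It was also past the fold in cluster 11, at 0.0766 and 0.0936. SLC39A10, a plasma membrane importer, was at 0.875 and 0.931 in cluster 9. With SLC39A14, 3 of 10 importers compared were thus higher in cluster 9, where the rule called 9.93% of all genes higher. With TMM normalization, 2 were higher, against 8.83% of all genes. The median log2 ratio of the 10 importers was 0.50, against 0 over all genes. In cluster 12, 5 of the 10 importers compared were lower, among 28.2% of all genes. With TMM normalization, 4 of the 10 were lower, among 21.4% of all genes. The 5 were SLC39A14, SLC39A7 (0.655 and 0.625), SLC39A10 (0.306 and 0.283), SLC39A3 (0.0927 and 0.0943) and SLC39A11 (0.0374 and 0.0479). The median over the 10 importers was -0.50, against -0.26 over all genes, a median that TMM normalization moved to -0.07. No importer was past the fold upward in cluster 12, where the rule called 9.74% of all genes higher.

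Other genes that handle metals, or answer oxidative stress or glucocorticoids, were counted beside the metallothioneins, since the same stimuli are known to act on MT2A. Each share is set beside that of all genes in the same clusters. Of 96 pairs of copper genes, 5 (5.21%, all genes 6.7%) were higher and 10 (10.4%, all genes 11.8%) lower. Of 106 pairs of iron genes, 5 (4.72%, all genes 6.84%) were higher and 8 (7.55%, all genes 11.8%) lower. Of 155 pairs of genes of the oxidative stress response, 9 (5.81%, all genes 6.51%) were higher and 24 (15.5%, all genes 11.6%) lower. Of 87 pairs of glucocorticoid response genes, 6 (6.9%, all genes 6.28%) were higher and 10 (11.5%, all genes 11.7%) lower. Nothing about the lists is read from these shares. In cluster 11, where MT2A was highest, the rule called 4.03% of all genes higher and 6.33% lower. There, none of 7 copper genes compared was past the fold, and HMOX1 was lower among 8 iron genes. CAT (catalase) was lower among 11 genes of oxidative stress, and none of 7 glucocorticoid response genes compared was past the fold. In cluster 12, 28.2% of all genes were called lower and 9.74% higher. There, KLF9 was higher and FKBP5 and CEBPD lower among 7 glucocorticoid response genes compared. NQO1, GCLC and TXNRD1 were lower among 10 genes of oxidative stress compared. SLC31A1 and ATP7A were lower among 7 copper genes compared, and FTL was lower among 8 iron genes. With TMM normalization, 2 of the copper genes were higher and 1 lower, and 1 of the iron genes was higher and 0 lower. The shares of all genes in cluster 12 were then 13.7% higher and 21.4% lower. Nothing is read from these counts, and whether metals, oxidative stress or glucocorticoids acted on MT2A was not tested.

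Genes with the most similar patterns were found for each of the 5 genes by the correlation of log2 levels over the clusters compared. For MT2A, over 15 clusters and 1523 genes, they were PTMA (0.945), SRSF9 (0.906), CNIH4 (0.904), TAGLN2 (0.9) and LDHA (0.899). Within single libraries the value for PTMA was 0.925 and 0.939, and without cluster 12 it was 0.877, while those of the other 4 genes fell to between 0.761 (TAGLN2) and 0.87 (LDHA). For SLC39A14, over 13 clusters and 5855 genes, they were ZNF451 (0.955), SLC20A1 (0.954), SEC63 (0.949), SMAD5 (0.949) and GALNT16 (0.948). For MTF1, over 11 clusters and 9364 genes, they were PAPOLA (0.962), MAP2K4 (0.956), SNX19 (0.952), ACTR1A (0.948) and YES1 (0.944). For SLC30A1, over the same number of each, they were MINDY3 (0.893), STAT3 (0.886), TRIB1 (0.884), TMEM150A (0.88) and PSMB10 (0.876), and the values of STAT3 and TRIB1 in replicate 1 were only 0.505 and 0.468. For MT1E, over 10 clusters and 10073 genes, they were HDDC3 (0.99), POLE4 (0.986), MASP1 (0.981), CAV1 (0.979) and TADA1 (0.977), with no value in replicate 1, where cluster 12 had no MT1E UMI. The clusters share libraries, and high values are readily found among many genes over few clusters, so these are descriptions only.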

How the data were processed

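The authors sequenced 2 droplet libraries and, with Cell Ranger 3.0.2 and the ARS-UCD1.2 genome, deposited UMI counts of 21867 genes in 19096 cells, after thinning reads to equal mapped depth per cell. The library of a cell was read from the number that ends its barcode. The deposited cluster table holds average UMI counts per cluster for 16816 genes. Its fold changes and p-values, the authors' own comparisons, were not used. The cluster of every cell was deduced from these averages. All 19096 cells were placed, and 0 of 252240 sums of gene and cluster differed from the deposited averages.

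UMIs were summed per cluster and library and given per 10000 UMIs, with no division by length as they come from 3′ ends (Python 3.11.15, numpy 2.4.6, scipy 1.17.1). With 1 calf and 2 technical libraries, no test was made; the rule of 1.5-fold in both libraries and an expected count of at least 10 took its place, and was tested on simulated data. The 5 genes, the gene lists and the rule for named genes were chosen with earlier results of these data known. Named were the 5 genes, the 5 most similar genes of each, and listed genes past the fold in any cluster. Doublets were called with Scrublet (scanpy 1.11.5) and kept; TMM factors came from edgeR 4.0.16. Of the 5 symbols, 4 matched a RefSeq symbol. A count of 0 allows up to 3 UMIs. The spread of MT2A over cells and likeness without cluster 12 were examined after the data were seen.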

Additional observations from a re-analysis of the deposited data

How the results depend on the processing

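The alternatives were a milder fold or a fold of 2, an expected count of at least 30 or none, TMM normalization, equal weight of clusters, doublets or cells under 2000 UMIs left out, the mean over cells of UMI shares, cells assigned by likelihood, and each library left out. For the 60 pairs of gene and cluster, 478 alternative log2 ratios were computed: 355 moved by less than the spread between libraries, 123 by more, and 0 of the called ratios changed sign. The 6 higher and 9 lower pairs became 13 and 13 with the milder fold, and 2 higher and 4 lower with a fold of 2; without a minimum of the expected count, 10 were higher. MT2A in clusters 3, 11 and 12 and SLC39A14 in cluster 12 were past the fold under all 11 alternatives that could lose a call. Leaving out a library added pairs: without replicate 1, MT1E in cluster 11 was higher and SLC30A1 in clusters 2 and 4 lower; without replicate 2, MT2A in cluster 15, MTF1 in cluster 10 and SLC30A1 in cluster 8 were higher and MT2A in cluster 13 lower. For the other listed genes, those of oxidative stress and glucocorticoid response included, there were 37 higher and 63 lower pairs. These became 94 and 105 with the milder fold, and 10 and 28 with a fold of 2. The shares of all genes at these other folds are not given here, so nothing is read from any of these counts of pairs. The MT2A span on the log2 scale, 4.76, was 4.50 with TMM normalization, 5.06 without doublets, 4.87 as a mean of cell shares and 4.94 with cells assigned by likelihood. The SLC30A1 span, 1.00, was 1.05 with TMM normalization and 1.13 to 1.19 in single libraries. The SLC39A14 span, 2.82, was 2.12 with TMM normalization, 2.12 without replicate 2 and 3.39 without replicate 1. The median correlation of MT2A and MT1E over cells, 0.0258, was 0.0181 without replicate 2 and turned to -0.0126 without replicate 1. The causes were not tested. No paired analysis was possible because the results come from no test.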
